A study of Xenopus laevis with 4 samples.

Results

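The miR-30 family was examined in small RNA libraries of Xenopus laevis epidermis, as the rows of the deposited miRNA table whose number is 30. There were 5 such rows of 98: miR-30a-5p, miR-30b, miR-30c, miR-30d and miR-30e, all under Xenopus tropicalis names. Epidermal explants of untreated embryos from in vitro fertilised eggs were taken at stage 11.5, a gastrula labelled non ciliated, and at stage 26, a tailbud labelled ciliated. Each stage had 2 libraries, a and b, described as technical replicates of 1 pool of 50 explants, so that p-values measure only the spread between libraries and not between embryos. Ciliation and age differ together between the stages and cannot be told apart. Groups follow the developmental stage label, since the source name of library b reads slightly later at both stages.

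MicroRNAs are short RNAs that guide repression of mRNAs, mainly through base pairing of the seed, a stretch near the 5′ end. Vertebrate miR-30 members share 1 seed, differ in the rest of the sequence and are common in differentiated tissues. In Xenopus, miR-30a-5p is known from the pronephros, the embryonic kidney, where it limits the transcription factor Lhx1. In mammals the family is also known from podocytes and from Notch signalling in endothelium.

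The mature sequences of the table are printed because some of the 5 rows are so alike that their reads can be told apart at few bases. Capitals mark the seed, bases 2 to 8 from the 5′ end.
miR-30d: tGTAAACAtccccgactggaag
miR-30a-5p: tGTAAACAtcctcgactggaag
miR-30e: tGTAAACAtccttgactggaag
miR-30b: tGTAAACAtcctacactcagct
miR-30c: tGTAAACAtcctacactctcagc
All 5 rows held the seed GTAAACA, and no other of the 98 rows held these letters at any position. They shared their first 11 bases. With positions counted from 1 at the 5′ end and the base of miR-30a-5p first, miR-30d differed from miR-30a-5p by T12C alone and miR-30e by C13T alone. miR-30d and miR-30e were 2 substitutions apart. miR-30b and miR-30c formed a second group, alike over their first 18 bases and 3 edits apart, and each lay 6 to 8 edits from the first group. How many mismatches were allowed when reads were assigned is not given, so reads of miR-30a-5p, miR-30d and miR-30e may have been exchanged. The number 30 had no row of a 3p arm or star strand in this table, and only miR-30a-5p carried an arm suffix, so the arms could not be compared.

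The values are CPM, the reads of a row scaled to a total of 1000000 over the listed miRNAs, and each was a whole multiple of the value of 1 read. Libraries held 22668 and 30406 such reads at stage 11.5 and 46892 and 41878 at stage 26. miR-427, an early embryonic miRNA that clears maternal mRNA, took 87.0% and 81.7% of reads in a and b at stage 11.5 against 7.57% and 6.95% at stage 26. Only 2937 and 5574 stage 11.5 reads were thus left for all other rows, and 39 of 98 rows were at 0 in both stage 11.5 libraries. Reads carried no molecular identifiers, so the exact (Clopper-Pearson) 95% intervals below cover counting error only. So do the limits given for a count of 0, which are 3 reads of the total and lie somewhat below the upper end of the exact interval. In bulk explants, fewer cells of a type and less RNA per cell cannot be told apart.

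miR-30d was the most abundant member in every library. It stood at 750 CPM (17 reads) and 2171 CPM (66 reads) in the stage 11.5 libraries a and b. At stage 26 it stood at 5651 CPM (265 reads) and 6400 CPM (268 reads). Both stage 26 libraries were thus above both stage 11.5 libraries in share of reads. miR-30d ranked 24th and 16th among all rows at stage 11.5 and 19th and 16th at stage 26.

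miR-30a-5p, the pronephros member, was at 0 and 32.9 CPM (1 read) at stage 11.5. At stage 26 it stood at 1599 CPM (75 reads) and 979 CPM (41 reads), where it was the second most abundant member. Its stages did not overlap.

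miR-30e, which shares an intron of the NFYC gene with a miR-30c copy in mammals, was at 0 in both stage 11.5 libraries. It stood at 277 CPM (13 reads) and 430 CPM (18 reads) at stage 26. In deposited CPM, the limits that a count of 0 allows at stage 11.5, 132 and 98.7 CPM in libraries a and b, lie below both stage 26 values. The exact interval of library a at stage 11.5, up to 163 CPM, still met that of library a at stage 26 (148 to 474).

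miR-30b, which lies beside miR-30d in mammalian genomes, was at 0 and 132 CPM (4 reads) at stage 11.5, and at 171 CPM (8 reads) and 454 CPM (19 reads) at stage 26. Between the stage 26 libraries there was a 2.66-fold gap, wider than that from 132 to 171 CPM between the stages. miR-30c was near the detection limit throughout, with 44.1 and 32.9 CPM (1 read in each library) at stage 11.5 and 0 and 71.6 CPM (0 and 3 reads) at stage 26. No ratio of pooled reads was computed for miR-30c, since both stages were at or under 3 reads. At stage 26, the interval of miR-30d lay above all others in both libraries. That of miR-30a-5p lay above the 3 lower rows in library a, and in library b its interval of 703 to 1328 CPM met that of miR-30b (273 to 708). The intervals of miR-30e and miR-30b overlapped in both libraries.

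**Figure D1:**
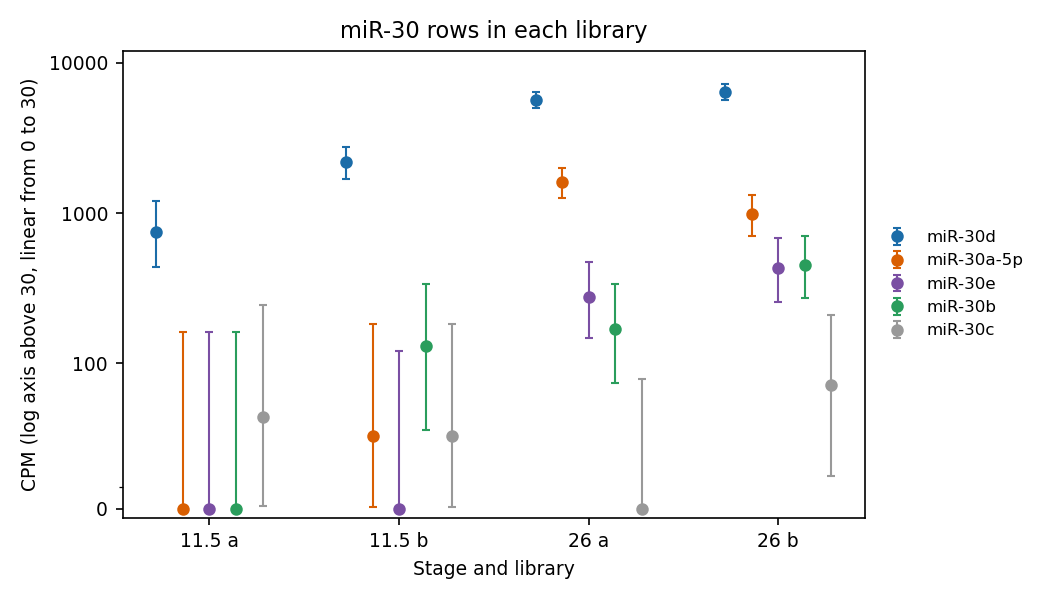
CPM of the 5 miR-30 rows in libraries a and b of stages 11.5 and 26, on an axis that is logarithmic above 30 CPM and linear below, with points for values and bars for exact 95% counting intervals. miR-30d is the highest point in each library, and miR-30a-5p goes from 0 and 32.9 CPM to 1599 and 979 CPM.

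In the deposited CPM, 4 of the 5 rows had both stage 26 libraries above both stage 11.5 libraries, the exception being miR-30c. The same held for 63.3% of all 98 rows, so the share of miR-30 rows was close to that of the table. CPM are shares of 1 total, so a smaller miR-427 raises the other rows by construction, and libraries were therefore scaled against each other. Scaling factors by the TMM method (a trimmed mean of log ratios between libraries) set the stages apart by 1.98 in log2 (3.95-fold). The method takes most rows as unchanged, yet 59.6% of tested rows were called in the comparison below. Other scaling factors set the stages 3.35-fold to 7.15-fold apart, so results on the TMM scale hold for that scale. Leaving miR-427 out of the totals, as done below, still gives shares of 1 total that other large rows can shift. Among these, miR-449 stood at 37674 and 47129 CPM at stage 11.5 and at 384437 and 392449 CPM at stage 26. After TMM scaling, 2 of 5 rows, miR-30a-5p and miR-30e, kept both stage 26 libraries above both stage 11.5 libraries, against 45.9% of all rows. For miR-30e no scaling can change this order, since both stage 11.5 values were 0, as they were in 39 of all 98 rows.

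The stages were compared with limma on log2(scaled CPM + 50), fitted to the 52 rows with 276.7 CPM or more in 2 libraries and 15 or more reads in total. P-values were adjusted over those rows by Benjamini-Hochberg, and the threshold was 0.05. The added 50 CPM shrinks the fold changes of low rows. Of the 5 miR-30 rows 3 were tested. miR-30b reached the limit in 1 library and miR-30c in none. miR-30a-5p and miR-30e passed the filter through their stage 26 libraries alone. There were 15 such rows in the table and 13 of them rose, so the 2 calls in the family are no separate sign of a direction. Over all tested rows 38.5% rose and 59.6% changed in either direction, with a median log2 fold change of 0.47.

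miR-30a-5p went from 31.1 ± 44.0 to 647 ± 212 scaled CPM (SD, n = 2) and rose by 3.18 in log2 (SE 0.477, limma adjusted p = 0.00399). The direction was the same in all 4 pairs of a stage 11.5 with a stage 26 library. In CPM this order follows from passing the filter through stage 26 alone, so it is no separate support. Its stage 11.5 level rested on 1 read in all, against 116 at stage 26. With miR-427 left out of the totals the pooled reads gave a ratio of 12.0 (interval 2.11 to 478). Omitting stage 26 library a (log2 2.65, limma adjusted p = 0.175) or b (log2 3.27, limma adjusted p = 0.117) ended the call. The fitted change depended on the added constant, at log2 4.57 with 10 CPM and 1.86 with 200 CPM. Its 17 alternatives gave adjusted p from 4.9e-10 to 0.175. The lowest came from pairing unlike-lettered libraries, an alternative chosen after seeing the data, and the lowest planned limma adjusted p was 6.5e-05. Alternatives that leave out 1 library assume that the lone library of a stage varies like those of the other stage.

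miR-30e went from 0 in both libraries to 178 ± 56.8 scaled CPM (SD, n = 2) and rose by a fitted 2.17 in log2 (SE 0.240, limma adjusted p = 0.00152). Both stage 11.5 values were 0, so the spread within that stage was 0 and the SE rests on stage 26 and on the other rows. With 0 against 31 pooled reads, the exact lower limit of its ratio was 4.73 in share, 1.21 after TMM scaling and 0.818 with miR-427 left out of the totals, where it includes no change. The fitted change depended on the added constant, at log2 4.20 with 10 CPM and 0.91 with 200 CPM. Library a of stage 26, at 277.2 CPM, passed the filter limit by a fraction of 1 CPM. Without library b of stage 26 the limit rose and miR-30e was not tested. The 16 alternatives that tested it gave adjusted p from 1.2e-05 to 0.0348. The lowest again came from pairing unlike-lettered libraries, and the lowest planned limma adjusted p was 0.000125. Without library a of stage 26 the spread came from the 2 stage 11.5 zeros and the other rows (SE 0.00437), so that fit shows nothing about stability.

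miR-30d was at 1564 and 4109 scaled CPM in the stage 11.5 libraries a and b, and at 2816 and 3253 at stage 26. The stage 26 values lay between the 2 stage 11.5 values. It did not pass (log2 0.25, SE 0.570, limma adjusted p = 0.725), and pooled scaled reads gave a ratio of 0.980 (interval 0.776 to 1.25). The result hung on the stage 11.5 library used. Omitting library a gave a log2 fold change of -0.40 (limma adjusted p = 0.117), and omitting b gave 0.96 (limma adjusted p = 0.0376). In the deposited CPM miR-30d was higher at stage 26 (log2 2.19, SE 0.587, limma adjusted p = 0.0144), as were miR-30a-5p (log2 4.34) and miR-30e (log2 2.99), beside 71.2% of all tested rows. With miR-427 left out of the totals miR-30d had a log2 fold change of -0.35 (limma adjusted p = 0.564). On that scale miR-30a-5p and miR-30e passed the limma test (log2 2.87 and 1.94, limma adjusted p = 0.00654 and 0.00118), beside 26.9% of tested rows. For miR-30e this rests on stage 11.5 values that are both 0 and on the added constant, and its pooled reads did not show a rise on that scale. Over 17 alternatives the adjusted p of miR-30d ranged from 0.0144 to 0.919.

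**Figure D2:**
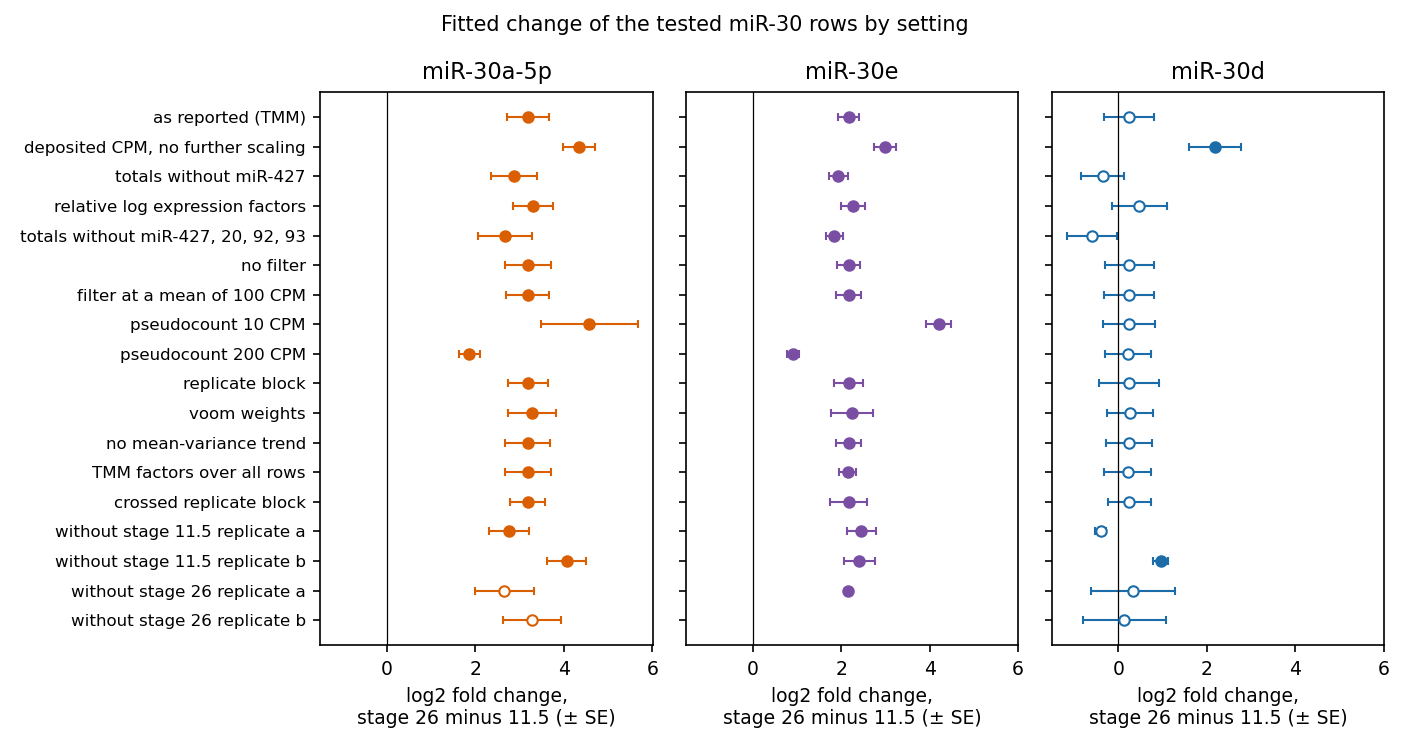
Fitted log2 fold change (stage 26 minus stage 11.5, bars ± SE) of the 3 tested miR-30 rows under each setting, with filled points for an adjusted p under 0.05 and open points otherwise. miR-30a-5p and miR-30e stay to the right of 0 in each setting where they were tested, and miR-30d lies on both sides of it, from -0.59 to 2.19.

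The untested rows were described under the fit with no filter, which the added constant dominates at such low values. There the log2 value of miR-30b was 0.67 (SE 0.966) at a limma adjusted p = 0.563, and that of miR-30c was -0.94 (SE 0.347) at a limma adjusted p = 0.0813. Neither passed. The ratio of pooled reads of miR-30b was 4.04 in share (interval 1.41 to 15.9) and 1.03 after scaling (0.359 to 4.05), so a change after scaling in either direction was not detectable at this depth.

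The 5 rows together held 18 and 72 reads in a and b at stage 11.5, and 361 and 349 at stage 26. Their sum was 794 and 2368 CPM at stage 11.5 and 7699 and 8334 CPM at stage 26, so that the stages did not overlap in share. The mean went from 0.158% ± 0.111 to 0.802% ± 0.0449 of all miRNA reads (SD, n = 2), 5.07-fold. Without library a of stage 11.5 the fold was 3.39, and without b it was 10.1. After TMM scaling the sum was at 1656 and 4482 at stage 11.5 and at 3836 and 4236 at stage 26, and the stages overlapped. With miR-427 left out of the totals it was 0.613% (interval 0.364 to 0.967) and 1.29% (1.01 to 1.62) at stage 11.5. At stage 26 it was then 0.833% (0.749 to 0.923) and 0.896% (0.804 to 0.994). On this scale both stage 26 libraries lay between those of stage 11.5, at a mean of 0.952% ± 0.480 against 0.864% ± 0.0444 (SD, n = 2). The sum over chosen rows was given no test.

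**Figure D3:**
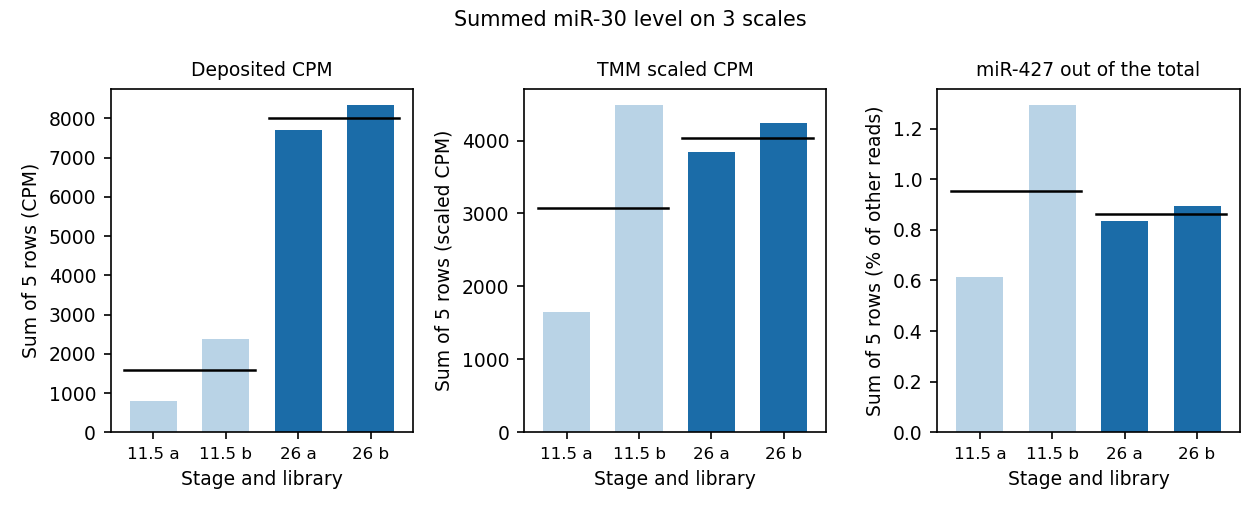
Sum of the 5 miR-30 rows in each library as deposited CPM, as TMM scaled CPM and as a percentage of reads other than miR-427, with bars for libraries and lines for stage means. The stages are apart in the first panel (794 and 2368 against 7699 and 8334 CPM), and in the others the stage 26 bars stand between the stage 11.5 bars.

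Shares within the miR-30 reads of 1 library do not depend on how libraries are scaled. miR-30d made up 94.4% (interval 72.7 to 99.9) and 91.7% (82.7 to 96.9) of miR-30 reads in the stage 11.5 libraries. At stage 26 it made up 73.4% (68.5 to 77.9) and 76.8% (72.0 to 81.1). The 4 libraries separated by stage, and the interval of library b of stage 11.5 lay above both of stage 26, while that of library a, with 18 reads, overlapped them. The means were 93.1% and 75.1%, with a two-sided exact permutation p = 0.33, the smallest that 2 libraries against 2 can give. The share of miR-30d is what the other rows leave. Its fall is therefore no result separate from the reads of miR-30a-5p and miR-30e, which passed the filter through stage 26 alone.

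Of the other rows, miR-30a-5p went from 0 of 18 reads, which allows a share of up to 16.7%, and 1.39% (interval 0.0352 to 7.50) to 20.8% (16.7 to 25.3) and 11.7% (8.56 to 15.6). miR-30e went from 0 of 18 and 0 of 72 reads, the latter allowing up to 4.17%, to 3.60% (1.93 to 6.08) and 5.16% (3.09 to 8.03). For miR-30e the stage 11.5 limits and the stage 26 intervals overlap, so library by library its share of the family was not separated between the stages. Pooled over libraries it took 0 of 90 reads at stage 11.5, with an exact upper end of 4.02%. At stage 26 it took 31 of 710 (4.37%, interval 2.99 to 6.14), and the pooled intervals overlap too. The difference in this share was given no test. miR-30b, at 0% and 5.56% (1.53 to 13.6) against 2.22% (0.961 to 4.32) and 5.44% (3.31 to 8.37), showed no order by stage.

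**Figure D4:**
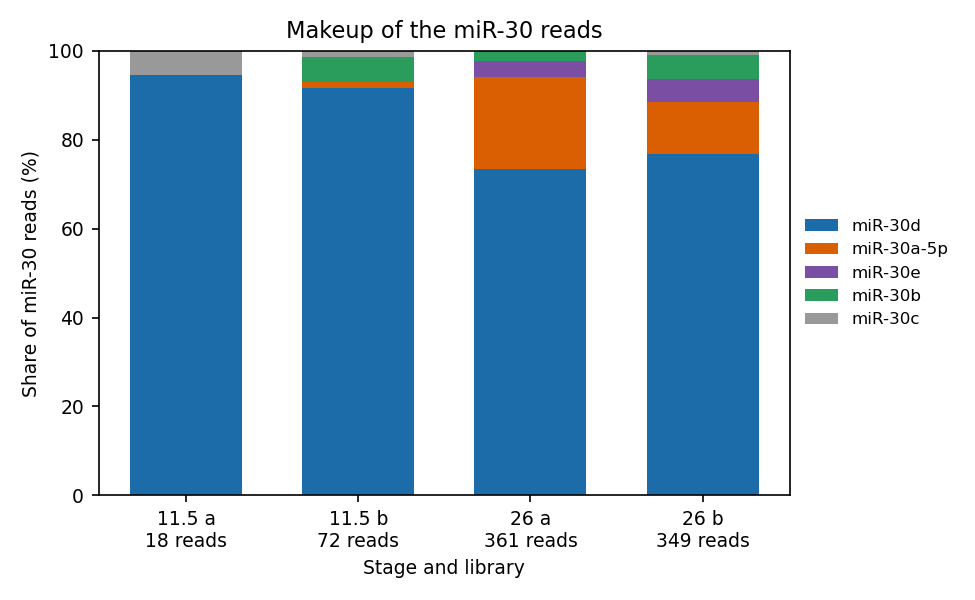
Share (%) of the reads of each library's miR-30 rows taken by each row, as stacked bars with the number of miR-30 reads below. miR-30d takes 94.4% and 91.7% at stage 11.5 against 73.4% and 76.8% at stage 26, where miR-30a-5p takes 20.8% and 11.7%.

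Of the reads of miR-30a-5p and miR-30d together, miR-30a-5p took 0 of 17 and 1 of 67 (1.49%, interval 0.0378 to 8.04) at stage 11.5. It took 75 of 340 (22.1%, 17.8 to 26.8) and 41 of 309 (13.3%, 9.69 to 17.6) at stage 26. The interval of library b of stage 11.5 lay below both stage 26 intervals, and 0 of 17 reads in library a allows up to 17.6%. Whether reads were exchanged between these rows was not tested. For miR-30e against miR-30d the counts were 0 of 17 and 0 of 66 at stage 11.5 and 13 of 278 (4.68%, 2.51 to 7.86) and 18 of 286 (6.29%, 3.77 to 9.76) at stage 26. There 0 of 66 allows up to 4.55%, so library by library the ratio of miR-30e to miR-30d was not separated between the stages. Pooled over libraries, 0 of 83 reads at stage 11.5 allows up to 3.61%, with an exact upper end of 4.35%. The pooled stage 26 interval was 3.76 to 7.71, which lies above the former and meets the latter.

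Libraries of a stage were set against each other with Fisher's exact test (two-sided) on the reads of a row against all other reads, adjusted over the rows above 0 in that stage. This compares libraries, not stages. At stage 11.5, miR-30d differed 2.89-fold between libraries in share of all reads, higher in b (Fisher adjusted p = 0.00025). Among reads other than miR-427 it was at 0.579% in a and 1.18% in b, a narrower gap (Fisher adjusted p = 0.0262). Of the 59 rows above 0 at that stage, 23.7% passed the test on all reads. How many of them had a gap as wide as 2.89-fold was not counted. miR-30a-5p, miR-30b and miR-30c, with at most 4 reads in a library, did not pass at stage 11.5, and miR-30e, at 0 in both libraries, was not tested. At stage 26 none of the 5 rows passed, beside 9.78% of 92 rows, and miR-30d was at 1.13-fold in b over a (adjusted p = 0.435). miR-30a-5p was 1.63-fold higher in a (adjusted p = 0.0845, unadjusted p = 0.0117) and miR-30b 2.66-fold higher in b (adjusted p = 0.106, unadjusted p = 0.0196).

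The depth left beside miR-427 set what could be seen of miR-30a-5p and miR-30e at stage 11.5. Among reads other than miR-427, miR-30a-5p was at 0 of 2937, which allows up to 0.102%, and at 0.0179% (interval 0.000454 to 0.0999). At stage 26 it was at 0.173% (0.136 to 0.217) and 0.105% (0.0755 to 0.143), so that library b of stage 26 overlapped with both stage 11.5 libraries. miR-30e was at 0 of 2937 and 0 of 5574, which allow up to 0.102% and 0.0538%. Both limits lie above its stage 26 values of 0.0300% and 0.0462%. Library by library, a rise of miR-30e among reads other than miR-427 was therefore not detectable at this depth.

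The rows outside the family whose profile over the 4 libraries was most like the miR-30 sum were miR-20a, miR-106 and miR-130c. Likeness was the root mean square difference of log2(scaled CPM + 50) after each profile's mean was taken off, over 49 tested rows. It was 0.158 for miR-20a, 0.439 for miR-106 and 0.458 for miR-130c. The first of these stood at 1323 and 2927 CPM at stage 11.5 and at 10023 and 11820 CPM at stage 26. Its lower library a at stage 11.5 is part of what the likeness measure picks, so it is no separate likeness. In the limma fit miR-20a and miR-106 did not pass, and miR-130c rose (log2 1.35, limma adjusted p = 0.0415). Within the family the root mean square difference was 0.155 for miR-30d, 0.958 for miR-30e and 1.35 for miR-30a-5p, and the sum itself is mostly miR-30d.

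Other miRNAs known from differentiated tissues, the miR-23, miR-24, miR-27 and miR-29 rows, were low at stage 11.5. So were the miR-30 rows other than miR-30d, but not miR-30d or the miR-30 sum after scaling. Of these 8 rows, 5 were at 0 in both stage 11.5 libraries, beside 39 of all 98 rows. They summed to 184 and 125 scaled CPM at stage 11.5, in a and b, against 978 and 898 at stage 26. In deposited CPM the stage 11.5 sums were 88.2 and 65.8, under the value of 3 reads (132 and 98.7 CPM). The size of the gap between the stages is therefore poorly known. The 2 tested rows, miR-23a and miR-23b, rose (log2 2.03 and 1.92, limma adjusted p = 0.0300 and 0.0341). They are near-identical to each other and, like miR-30a-5p and miR-30e, passed the filter through stage 26 alone, so their direction is no separate evidence.

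Rows known from particular tissues are given as scaled sums, and their counts of calls stand beside the 38.5% of tested rows that rose. The planned lists also held miR-9 and miR-124 (neural), miR-133 (muscle), miR-122 and miR-194 (gut and liver), miR-144 (blood) and miR-141 (epithelium). These miRNAs had no row in the deposited data. The epidermal and epithelial rows (miR-200a, miR-200b, miR-203, miR-205a and miR-429) summed to 36068 and 32246 scaled CPM at stage 11.5 and 73282 and 79495 at stage 26, and 2 of their 4 tested rows rose. The rows known from multiciliated epithelium (miR-34a, miR-34b and miR-449) summed to 83913 and 92256 scaled CPM at stage 11.5 and 229101 and 238751 at stage 26, and miR-34b and miR-449 rose and miR-34a did not pass. The neural rows miR-7 and miR-218 summed to 1104 and 560 scaled CPM at stage 11.5 and 5622 and 6494 at stage 26. Of these 2 tested rows miR-218 rose, and miR-7 did not pass (log2 -0.30, limma adjusted p = 0.504). The gut and liver rows miR-192 and miR-215 were at 0 at stage 11.5 and summed to 616 and 801 scaled CPM at stage 26, and the 1 tested row, miR-215, rose. Like miR-23a and miR-23b, miR-215 and miR-218 passed the filter through stage 26 alone, so their direction is no separate evidence. The muscle rows miR-1b and miR-206 were higher at stage 11.5 after scaling, at 1564 and 1307 against 712 and 813 scaled CPM, and the 1 tested row fell. In deposited CPM the muscle sum ran the other way, at 750 and 691 against 1429 and 1600 CPM. The blood and vessel rows miR-126, miR-223 and miR-451 summed to 2024 and 2428 scaled CPM at stage 11.5 and 138.1 and 194.2 at stage 26, and the 1 tested row, miR-126, fell, having passed the filter through stage 11.5 alone. The part of these tissues in the miR-30 values was not tested.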

How the data were processed

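Small RNA was sequenced from explants of 2 stages, with 2 libraries each. The authors deposited CPM: each column sums to 1000000 over 98 miRNAs. Library construction used Ambion's SREK protocol, per the labels. No source used here gives the sequencer, aligner, mismatches allowed or miRNA database release. All 392 values were whole multiples of their column's smallest nonzero value (tolerance 1e-06), taken as 1 read. This recovery rests on few values per column, so the planned count-based test was replaced by a trended limma fit (limma 3.58.1 in R 4.3.3). TMM factors, trimming 30% of M and 5% of A values at each end, came from recovered reads of the 52 tested rows (10 reads at the median depth in 2 libraries, 15 in total). The constant added was 50 CPM. The fit was tested on simulated data. These held no shift between stages as large as that of miR-427, so they do not bear on it. Each simulated row was drawn around its mean over all libraries, with changes of at most 2 in log2. That does not cover rows at or near 0 at 1 stage alone, as miR-30a-5p and miR-30e are. Members and lists were chosen with earlier results of these data known. Named rows were all rows numbered 30, the 3 most like the summed level, and the comparison and marker lists. Alternatives covered scaling, filter, constant, weights, trend, replicate block and each library left out; TMM over all rows, the crossed block and Fisher's test without miR-427 were chosen after seeing the data.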

Additional observations from a re-analysis of the deposited data

How the results depend on the processing

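The count of miR-30 rows past the limma test was 2. It ranged from 0 to 3 with 1 library left out, where the filter asked for 1 library alone, and was 3 in the deposited CPM. In the deposited CPM 43 of all 52 tested rows passed, 37 of them higher at stage 26, against 31 of 52 after TMM scaling. The lowest count came without library b of stage 26, where 2 miR-30 rows were tested and miR-30e was not. The count of miR-30 rows was 2 in the other alternatives, the replicate block among them. No label says that the letters pair libraries, and deviations of same-lettered libraries correlated at r = -0.260 across 52 rows. The crossed pairing also called 2 miR-30 rows, and 36 rows in all against 31. The sign of miR-30d, which passed in 2 of 17 alternatives, turned with miR-427 left out of the totals (log2 -0.35) and with the rows numbered 20, 92 and 93 also left out (-0.59), and ranged from -0.40 to 0.96 with 1 library left out. The fold of the summed rows was 5.07 in CPM, 1.32 after TMM scaling and 0.908 without miR-427, and 3.39 to 10.1 with 1 library left out (10.1 without library b of stage 11.5). The scales divide the same values by factors that set the stages 3.95-fold (TMM) and 6.02-fold (miR-427 left out) apart. The folds with 1 stage 11.5 library left out follow from sums of 794 and 2368 CPM in a and b. Why these libraries differed was not tested. Summing the rows before the fit was not run as a test, and a sum over 5p rows alone would not differ, since no 3p row is listed. Over all tested rows, calls went from 31 to 11 or 12 without 1 stage 26 library and to 40 or 41 without 1 stage 11.5 library, where 64 and 63 rows were tested. At stage 11.5, miR-30a-5p, miR-30b, miR-30c and miR-30e had at most 4 reads in a library.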
